A study of Mus musculus with 3 samples.

Results

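The 26S proteasome is the protease complex that degrades ubiquitin-tagged proteins, and its subunits are encoded by the Psma, Psmb, Psmc, Psmd and Psme genes. Every row of the 3 count tables whose symbol begins with one of these stems and a digit was taken, which gave 45 of 31053 genes. They comprised 8 Psma genes, 11 Psmb genes, 7 Psmc genes, 14 Psmd genes and 5 Psme genes. Psmb8, Psmb9 and Psmb10 were set against Psmb5, Psmb6 and Psmb7. One row, Psmc3ip, matched the stem although it encodes a partner protein of meiotic recombination and no proteasome subunit.

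The study profiled bone marrow of C57BL/6 mice after enrichment of cells carrying the receptor Kit, which marks stem and progenitor cells, with 10x Genomics 3' single-cell libraries. The steady-state library came from unchallenged mice, the once-challenged library from mice given E. coli 1 time and labelled 24 h, and the twice-challenged library from mice given E. coli 2 times and labelled 48 h. Whether the hours count from the first or from the last challenge was not stated, so the number of challenges and the time cannot be told apart. The title places the question in how a first infection alters hematopoietic stem and progenitor cells (HSPCs) and the neutrophils they give rise to. Each condition was 1 library, with no replicate and with no number of pooled animals given, so no test between conditions was possible; all intervals below are 95% intervals that cover counting error only.

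The tables held 9684 cell barcodes in the steady-state library, 9060 in the once-challenged library and 8923 in the twice-challenged library, with 119646078, 135079828 and 95522747 unique molecular identifiers (UMIs, each counting 1 captured RNA molecule). After filtering, 8796, 8356 and 8286 cells were kept. Between 103 and 125 barcode sequences recurred in each pair of libraries. Median UMIs per kept cell were 10969, 13004 and 10248, and the median mitochondrial share was 2.07%, 2.58% and 4.10%. The source label reads bone marrow neutrophil, while the kept cells formed 12 named classes. Cells whose cluster carried 12 of 14 fixed HSPC markers were called HSPC-like, and clusters led by genes of primary granules, such as Elane and Mpo, were called neutrophil progenitor-like. HSPC-like cells numbered 625, 982 and 673 and made up 7.11%, 11.8% and 8.12% of the kept cells and neutrophil progenitor-like cells 8.98%, 19.3% and 24.2%, whereas immature neutrophil-like cells made up 41.7%, 13.9% and 18.9%. Lymphoid, erythroid and dendritic cells were also present in the Kit-enriched libraries.

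The 20S core of the proteasome is a barrel of stacked rings, with alpha subunits outside and beta subunits inside. Proteolysis is carried out by Psmb5, with chymotrypsin-like activity, Psmb6, with caspase-like activity, and Psmb7, with trypsin-like activity. Under interferon gamma, and constitutively in many blood cells, newly built particles take up Psmb8 (LMP7), Psmb9 (LMP2) and Psmb10 (MECL-1) in place of Psmb5, Psmb6 and Psmb7. The resulting immunoproteasome favours peptides that fit MHC class I molecules. Psme1 and Psme2 form the PA28 cap, which is also interferon inducible, while the 19S cap of Psmc ATPases and Psmd proteins recognises and unfolds ubiquitinated substrates.

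Psmb8 and Psmb9 lie in the MHC region of chromosome 17 on opposite strands, Psmb10 lies on chromosome 8, and Psme1 and Psme2 are close neighbours on chromosome 14. In GENCODE M21 coordinates on GRCm38, the build called mm10 in the submitters' notes, Psmb8 spans chr17:34197721-34201454 on the plus strand, Psmb9 spans chr17:34181987-34187764 on the minus strand and Psmb10 spans chr8:105935735-105938444 on the minus strand. The 250 bases before the RefSeq (GRCm38.p6) start of the 3 inducible genes are shown because these genes carry the comparison with the constitutive subunits, and 30 bases around the start of Psme1 are shown because they hold an interferon-type motif. They come from chr17:34197945-34198194 (plus strand, Psmb8), chr17:34187331-34187580 (minus strand, Psmb9), chr8:105938393-105938642 (minus strand, Psmb10) and chr14:55578493-55578522 (plus strand, Psme1, from 1 base before to 29 bases into the transcript). Capitals mark the gamma-activated sequence (GAS) searched as TTCNNNGAA and the core of the interferon-stimulated response element (ISRE) searched as GAAA, any 2 bases and GAAA, both on either strand, and the remainder is in lower case.
Psmb8: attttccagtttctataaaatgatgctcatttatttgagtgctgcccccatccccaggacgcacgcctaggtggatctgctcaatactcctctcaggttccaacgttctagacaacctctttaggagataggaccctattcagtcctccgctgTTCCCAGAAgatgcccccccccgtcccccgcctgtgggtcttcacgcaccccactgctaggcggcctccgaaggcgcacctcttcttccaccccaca
Psmb9: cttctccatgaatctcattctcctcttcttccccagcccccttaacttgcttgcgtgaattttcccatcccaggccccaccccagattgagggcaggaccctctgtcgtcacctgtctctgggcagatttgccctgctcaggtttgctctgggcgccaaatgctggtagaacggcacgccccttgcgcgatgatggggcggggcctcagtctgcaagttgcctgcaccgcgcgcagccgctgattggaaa
Psmb10: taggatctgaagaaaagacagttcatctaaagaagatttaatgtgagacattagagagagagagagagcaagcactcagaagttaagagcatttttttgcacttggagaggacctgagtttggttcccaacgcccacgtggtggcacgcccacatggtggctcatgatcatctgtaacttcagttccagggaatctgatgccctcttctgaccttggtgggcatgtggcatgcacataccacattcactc
Psme1: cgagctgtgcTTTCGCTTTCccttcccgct
The GAS of Psmb8, TTCCCAGAA, began 97 bases before the start, and the ISRE core of Psme1 lay on the minus strand as GAAAGCGAAA. The RefSeq table held a window of 250 bases before to 50 bases after the start for 38 of the 45 genes. A GAS was present in 2 of these genes (Psmb8 and Psmd2), against 9.55% of all 27025 genes in the table, and an ISRE core in 4 (Psmb3, Psmd4, Psmd9 and Psme1), against 3.99%. The upstream windows of Psmb9 and Psmb10 held neither set of letters. These windows precede the RefSeq start only. By the GENCODE spans above, those of Psmb8 and Psmb9 lay inside the gene, and that of Psmb10 overlapped its first bases. The antioxidant response element, the kind of site bound by the Nfe2l1 and Nfe2l2 factors, was searched as TGANNNNGC and found in 22 of 38 member genes, against 45.05% of all genes. CCAAT occurred in 15 of 38, against 41.1%, and the kappaB motif (GGGA, any 3 bases and TCC) in 3 of 38, against 5.21%. The motifs were not required to be free of overlap with one another, and a match of letters is a description of the sequence only.

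Levels are given as counts per 1000000 UMIs (CPM). The libraries count 3' ends, 1 per molecule, so no value was divided by gene length. Psma7, an alpha ring subunit, had the highest level of the 45 genes in every library, at 369 CPM in the steady-state library, 523 CPM in the once-challenged library and 416 CPM in the twice-challenged library over all kept cells. Psmb1, a non-catalytic beta subunit, followed in the steady-state library. Psmb11, the thymus-specific catalytic subunit, had 0 UMIs in all 3 libraries, and 3 UMIs, the floor used, would correspond to 0.0271, 0.0237 and 0.0334 CPM in the steady-state, once-challenged and twice-challenged libraries. Psma8, the testis-specific alpha subunit, reached 2.40 CPM in the steady-state library, 2.14 CPM in the once-challenged library and 1.32 CPM in the twice-challenged library. In the last 300 bases of their annotated transcripts, 7 members shared over 50% of their 31-base words with other genes (Psmd1, Psma5, Psmb5, Psme2, Psme2b, Psmb3 and Psmd2), and their counts are uncertain on that ground. For Psmb5 the share was 62.9%, whereas Psmb8, Psmb9 and Psmb10 shared none.

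The summed level of the 45 genes over all kept cells was 5610.3 CPM in the steady-state library, 7505 CPM in the once-challenged library and 4940.4 CPM in the twice-challenged library. It was thus highest in the once-challenged library and lowest in the twice-challenged library. The same order held in HSPC-like cells, with 5979 CPM in the steady-state library, 7091 CPM in the once-challenged library and 4561 CPM in the twice-challenged library, and in neutrophil progenitor-like cells, with 6617 CPM in the steady-state library, 8622 CPM in the once-challenged library and 5667 CPM in the twice-challenged library. Among the 12 classes, mature neutrophil-like cells had the lowest sums, at 2586 CPM in the steady-state library, 2579.9 CPM in the once-challenged library and 1833 CPM in the twice-challenged library. Monocyte-like cells had 7772 CPM in the steady-state library, 8932 CPM in the once-challenged library and 6196 CPM in the twice-challenged library, and dendritic cell-like cells 7784 CPM in the steady-state library, 8558 CPM in the once-challenged library and 5219.7 CPM in the twice-challenged library. Erythroid-like cells were an exception to the order, with 7256 CPM in the steady-state library, 6817 CPM in the once-challenged library and 5400.04 CPM in the twice-challenged library. Megakaryocyte-like cells were another, with 6421 CPM in the steady-state library, 6264 CPM in the once-challenged library and 4234 CPM in the twice-challenged library, and in mature neutrophil-like cells the steady-state and once-challenged sums were nearly equal. The plot of sums by class shows these values.

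**Figure D1:**
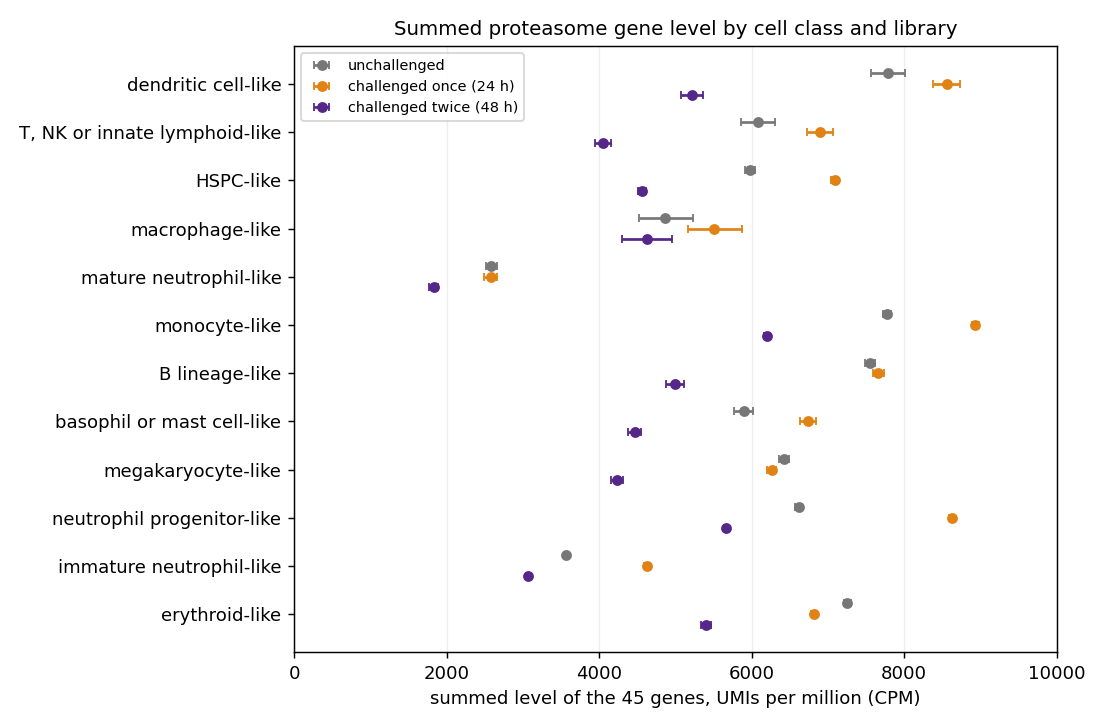
Summed level of the 45 genes (x axis, counts per 1000000 UMIs) in each of 12 cell classes (y axis, ordered by inducible share in the steady-state library), with 1 point per library in grey, orange and purple for 0, 1 and 2 challenges and bars for exact Poisson 95% intervals. The purple points lie lowest in every class, and mature neutrophil-like cells are at 2586, 2580 and 1833 CPM.

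The constitutive catalytic subunits were each highest in the once-challenged library. Over all kept cells, Psmb5 had 223 CPM in the steady-state library, 322 CPM in the once-challenged library and 227 CPM in the twice-challenged library. Psmb6 had 207 CPM in the steady-state library, 295 CPM in the once-challenged library and 187 CPM in the twice-challenged library, and Psmb7 had 165 CPM in the steady-state library, 220.1 CPM in the once-challenged library and 116 CPM in the twice-challenged library. Their counting intervals in the once-challenged library did not overlap those in either other library. In the once-challenged library over the steady-state library, the ratio was 1.45-fold (1.42 to 1.47) for Psmb5, 1.43-fold (1.40 to 1.45) for Psmb6 and 1.33-fold (1.31 to 1.36) for Psmb7. In the twice-challenged library over the steady-state library, Psmb7 was at 0.704-fold (0.687 to 0.721), while Psmb5 was at 1.02-fold (1.002 to 1.04).

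The inducible catalytic subunits were likewise highest after 1 challenge. Psmb8 had 229.8 (227 to 233) CPM in the steady-state library, 379 (376 to 383) CPM in the once-challenged library and 220.04 (217 to 223) CPM in the twice-challenged library over all kept cells. Psmb9 had 131 (128 to 133) CPM in the steady-state library, 168 (165 to 169.99) CPM in the once-challenged library and 110.02 (108 to 112) CPM in the twice-challenged library, and Psmb10 had 75.7 (74.1 to 77.4) CPM in the steady-state library, 129 (128 to 131) CPM in the once-challenged library and 77.4 (75.6 to 79.3) CPM in the twice-challenged library. Psmb8 stood 1.65-fold (1.63 to 1.68) and Psmb10 1.71-fold (1.66 to 1.76) in the once-challenged library over the steady-state library, and these were the 2 members past 1.5-fold on the log2 scale described next. Psmb9 stood at 1.28-fold (1.26 to 1.31). After 2 challenges, Psmb8 was at 0.958-fold (0.940 to 0.976) and Psmb10 at 1.02-fold (0.990 to 1.06) of the steady-state level, the interval of Psmb10 including 1. In the twice-challenged library over the once-challenged library all 3 were lower, at 0.580-fold (0.570 to 0.590) for Psmb8, 0.656-fold (0.640 to 0.672) for Psmb9 and 0.598-fold (0.581 to 0.615) for Psmb10.

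HSPC-like cells carried more Psmb8 than Psmb5 in every library. Psmb8 had 413 CPM in the steady-state library, 507 CPM in the once-challenged library and 305 CPM in the twice-challenged library, and Psmb5 had 228 CPM in the steady-state library, 275 CPM in the once-challenged library and 172 CPM in the twice-challenged library. Psmb9 had 178 CPM in the steady-state library, 223 CPM in the once-challenged library and 136 CPM in the twice-challenged library, against 211, 282 and 174 CPM for Psmb6 in the same libraries. Psmb10 had 122 CPM in the steady-state library, 143 CPM in the once-challenged library and 92.4 CPM in the twice-challenged library, against 148, 199.97 and 109 CPM for Psmb7. All 6 catalytic genes were highest in the once-challenged library and lowest in the twice-challenged library. In neutrophil progenitor-like cells the order of Psmb8 and Psmb5 turned round, with Psmb8 at 289 CPM in the steady-state library, 380.4 CPM in the once-challenged library and 210.4 CPM in the twice-challenged library and Psmb5 at 312 CPM in the steady-state library, 428 CPM in the once-challenged library and 298 CPM in the twice-challenged library. Psmb9 departed from the other catalytic genes there, at 139 (133 to 145) CPM in the steady-state library, 137 (133 to 140.1) CPM in the once-challenged library and 97.9 (94.4 to 101) CPM in the twice-challenged library, so its steady-state and once-challenged intervals overlapped. Psmb6 had 224 CPM in the steady-state library, 345 CPM in the once-challenged library and 224 CPM in the twice-challenged library in these cells, Psmb7 had 178 CPM in the steady-state library, 253 CPM in the once-challenged library and 133 CPM in the twice-challenged library, and Psmb10 had 104 CPM in the steady-state library, 151 CPM in the once-challenged library and 87.2 CPM in the twice-challenged library.

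**Figure D2:**
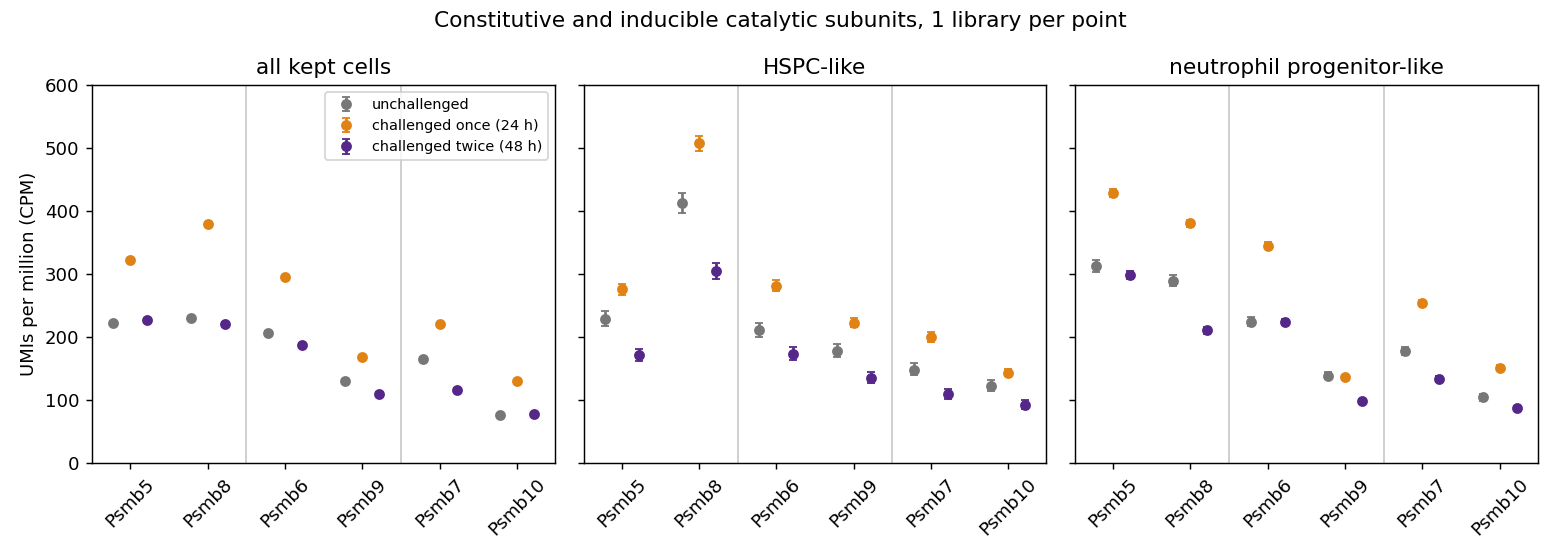
Levels (y axis, counts per 1000000 UMIs) of each constitutive catalytic gene beside its inducible counterpart (x axis) in 3 populations (panels, titled), with 1 point per library in grey, orange and purple for 0, 1 and 2 challenges and bars for exact Poisson 95% intervals. Psmb8 lies above Psmb5 in HSPC-like cells (413 and 228 CPM in the steady-state library) and below it in neutrophil progenitor-like cells (289 and 312 CPM).

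The inducible share, that is the UMIs of Psmb8, Psmb9 and Psmb10 as a percentage of these and of Psmb5, Psmb6 and Psmb7, needs no scaling between libraries. Over all kept cells it was 42.3% (42.01 to 42.6) in the steady-state library, 44.7% (44.5 to 44.9) in the once-challenged library and 43.4% (43.1 to 43.7) in the twice-challenged library, with exact Clopper-Pearson intervals. In HSPC-like cells it was 54.8% (53.7 to 55.9) in the steady-state library, 53.6% (52.9 to 54.2) in the once-challenged library and 53.96% (52.8 to 55.1) in the twice-challenged library, so the intervals of each challenged library and of the steady-state library overlapped. The share in HSPC-like cells was above that over all kept cells in every library. In neutrophil progenitor-like cells the share was 42.7% (41.96 to 43.4) in the steady-state library, 39.4% (39.1 to 39.8) in the once-challenged library and 37.6% (37.1 to 38.2) in the twice-challenged library, and the 3 intervals did not overlap. In both clusters of that class the share in each challenged library lay below that in the steady-state library, with intervals apart. The cluster with 394, 1116 and 789 cells had shares of 45.4%, 41.9% and 41.9% with 0, 1 and 2 challenges, and the cluster with 396, 499 and 1217 cells had 39.3%, 31.7% and 32.8%. The make-up within this class also moved with the library. At a finer clustering resolution of 2, one neutrophil progenitor-like cluster held 8, 39 and 1209 cells with 0, 1 and 2 challenges, another held 491, 481 and 54 and the third held 254, 627 and 91. With these 3 clusters as the class, without 2 clusters that matched this class best but stayed unnamed, the share was 41.2% in the steady-state library, 35.5% in the once-challenged library and 33.5% in the twice-challenged library. The pair Psmb9 and Psmb6 differed most in these cells, with Psmb9 at 38.2%, 28.4% and 30.4% of the pair, against 48.1%, 47.05% and 41.4% for Psmb8 of Psmb8 and Psmb5 and 36.97%, 37.4% and 39.5% for Psmb10 of Psmb10 and Psmb7.

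Across classes the inducible share covered a wider range than across libraries. Erythroid-like cells had the lowest share, at 17.8% in the steady-state library, 25.7% in the once-challenged library and 23.6% in the twice-challenged library, and dendritic cell-like cells the highest in the steady-state and once-challenged libraries, at 68.5% in the steady-state library, 69.99% in the once-challenged library and 66.7% in the twice-challenged library. T, NK or innate lymphoid-like cells came next among the named classes at steady state, at 59.5% in the steady-state library, 64.5% in the once-challenged library and 67.04% in the twice-challenged library, with overlapping intervals between them and the dendritic cell-like cells in the twice-challenged library. Monocyte-like cells had 49.7% in the steady-state library, 47.2% in the once-challenged library and 47.4% in the twice-challenged library. Within the neutrophil lineage, HSPC-like cells in the steady-state library had 54.8%, neutrophil progenitor-like cells 42.7%, immature neutrophil-like cells 39.1% and mature neutrophil-like cells 51.2%. Among erythroid-like cells, the globin-rich cluster had shares of 9.53%, 14.9% and 14.3% with 0, 1 and 2 challenges, and Psmb8 in erythroid-like cells had 55.4 CPM in the steady-state library, 103 CPM in the once-challenged library and 55.3 CPM in the twice-challenged library. Whether RNA released by other cells contributes to these low values was not tested. A cluster of 249, 363 and 459 cells that stayed unnamed, since none of its 10 leading genes marked a single class, had 61.9% in the steady-state library, 59.7% in the once-challenged library and 60.5% in the twice-challenged library; it held 2.83%, 4.34% and 5.54% of the kept cells.

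**Figure D3:**
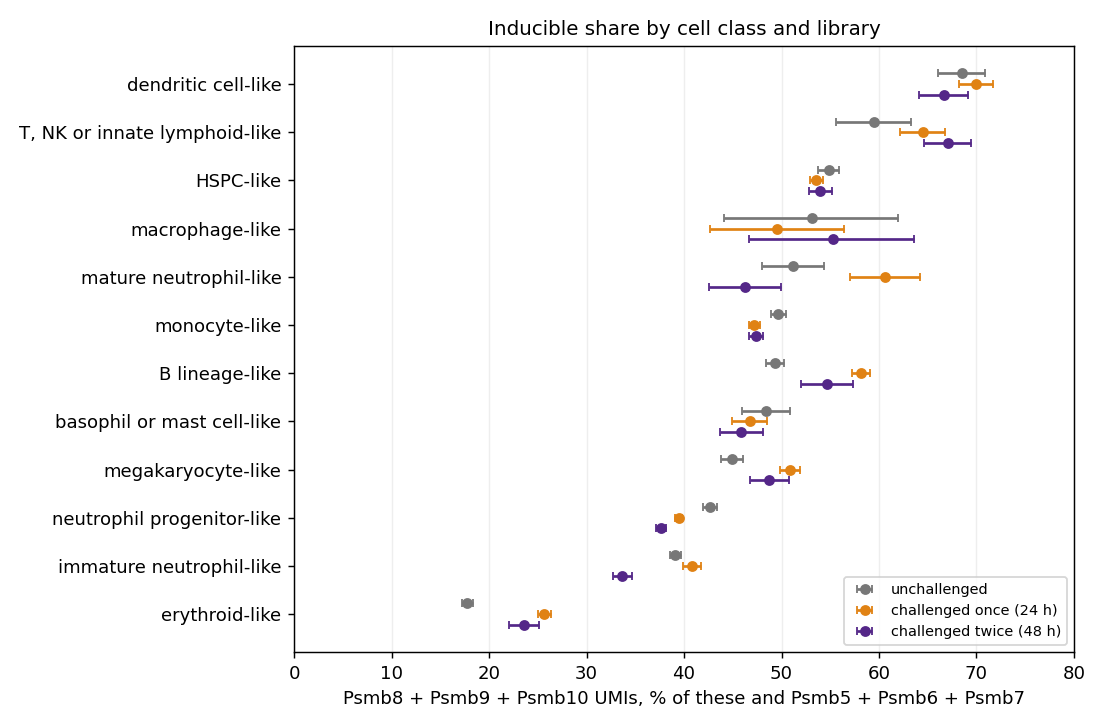
Inducible share (x axis, percent of the UMIs of the 6 catalytic genes that came from Psmb8, Psmb9 or Psmb10) in 12 cell classes (y axis), with 1 point per library in grey, orange and purple for 0, 1 and 2 challenges and bars for Clopper-Pearson 95% intervals. Erythroid-like cells lie lowest, from 17.8% to 25.7%, and dendritic cell-like cells lie from 66.7% to 70.0%.

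The direction of the share between libraries differed among classes, and none of these differences was tested. In the once-challenged library against the steady-state library, B lineage-like cells had 58.2% against 49.3%, erythroid-like cells 25.7% against 17.8%, megakaryocyte-like cells 50.9% against 44.9% and mature neutrophil-like cells 60.6% against 51.2%, each with intervals apart. Monocyte-like cells had 47.2% against 49.7%, the opposite direction, also with intervals apart. Immature neutrophil-like cells had 40.8% in the once-challenged library against 39.1% in the steady-state library, but 33.7% in the twice-challenged library. The make-up of classes moved with the library. In mature neutrophil-like cells, one cluster held 409, 168 and 224 cells with 0, 1 and 2 challenges and had shares of 51.04%, 57.7% and 38.7%, while the other held 3, 280 and 451 cells, so that it was nearly absent from the steady-state library, and had 63.5% in the once-challenged library and 53.7% in the twice-challenged library. In immature neutrophil-like cells, one cluster held 1897, 520 and 55 cells with 0, 1 and 2 challenges and had shares of 38.4%, 43.7% and 38.3%, while another held 38, 49 and 643 cells. With the class make-up of the steady-state library imposed, the share over all cells became 44.1% in the once-challenged library and 40.7% in the twice-challenged library, against 42.3% in the steady-state library.

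For single genes, the log2 ratio of CPM was taken with 10 CPM added to each level, for genes that had 100 UMIs or more in the 2 libraries together, and a gene past 1.5-fold on that scale was called higher or lower. In the once-challenged library over the steady-state library, 44 of the 45 members passed this floor over all kept cells, of which 2 were higher (Psmb10, 0.70, and Psmb8, 0.70) and 0 lower; over all 12181 genes measured, 1.99% were higher and 1.52% lower. The 3 comparisons share libraries, so their values are given side by side and are not independent. The median ratio of the members was 0.35, against 0.07 over all genes, and 42 of 44 lay above 0. Median-of-ratios scaling moved this comparison by 0.20, so relative to the typical gene the members' median was 0.16, 41 of 44 lay above 0 and 0 were past 1.5-fold. Next after the inducible pair came Psma5 (0.54), Psmb5 (0.51) and Psma3 (0.49). With the class make-up of the steady-state library imposed, 0 members were higher and the median was 0.16.

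Among HSPC-like cells, 0 of 43 measured members were past 1.5-fold in the once-challenged library over the steady-state library, where 0.652% of 9046 genes were higher and 1.27% lower. The members' median was 0.23, against -0.01 over all genes, with 40 of 43 above 0. After a scaling shift of -0.02 the members' median was 0.24, with 41 of 43 above 0. The members furthest from 0 were Psmc3ip (0.42), Psmb7 (0.41), Psmd2 (0.41), Psmb6 (0.40) and Psmb3 (0.37). Neutrophil progenitor-like cells had 4 of 44 members higher and 0 lower, where 2.35% of 9689 genes were higher and 1.31% lower. These were Psmd2 (0.62), a scaffold of the 19S base, Psmd3 (0.62), a subunit of the 19S lid, Psmb6 (0.60), and Psmc5 (0.59), a base ATPase. Psme3, the nuclear PA28 gamma, followed with 0.56. The median there was 0.39, against 0.07 over all genes, and 0.28 after a scaling shift of 0.12 that left 0 members past 1.5-fold.

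In the twice-challenged library over the steady-state library, 1 of 44 members was lower and 0 higher over all kept cells, where 4.06% of 11944 genes were lower and 2.3% higher. It was Psmc2, a base ATPase, at 72.7 CPM in the steady-state library, 85.8 CPM in the once-challenged library and 37.4 CPM in the twice-challenged library, a log2 ratio of -0.80. Psmc4 (-0.58), Psmd9 (-0.57), Psmd7 (-0.56) and Psmb2 (-0.49) came next. The members' median was -0.21, against -0.02 over all genes, and -0.14 after a scaling shift of -0.07. HSPC-like cells had 5 of 42 members lower and 0 higher, where 9.77% of 8045 genes were lower and 1.74% higher. They were Psmb2 (-0.90), Psmd8 (-0.80), Psmc2 (-0.74), Psmd9 (-0.70) and Psmd7 (-0.66), and the share of members lower was thus close to that of all genes. Their median of -0.40 stood against -0.15 over all genes; after a scaling shift of -0.21 it was -0.21 and 2 were lower. Neutrophil progenitor-like cells had 3 of 43 lower (Psmc2, -0.65; Psmd7, -0.62; Psmb2, -0.61) and 0 higher, where 4.74% of 9297 genes were lower and 1.82% higher, and 0 were lower after a scaling shift of -0.11.

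Of the 3 comparisons, the twice-challenged library over the once-challenged library had the most members past 1.5-fold. Over all kept cells 21 of 44 members were lower and 0 higher, where 8.43% of 12070 genes were lower and 1.44% higher. All 44 measured members lay below 0, from -1.03 to -0.05, with a median of -0.56 against -0.08 over all genes. The count depends on scale: after a scaling shift of -0.24, 5 members were lower, 41 of 44 lay below 0 and the median was -0.35. HSPC-like cells had 22 of 43 members lower and 0 higher, where 10.4% of 9056 genes were lower and 1.76% higher. Their median was -0.59, against -0.12 over all genes, and -0.43 with 10 members lower after a shift of -0.18. The HSPC-like cells of the libraries also fell into different clusters at resolution 2, with 526, 737 and 46 cells in one, 83, 150 and 602 in another and 242, 357 and 211 in the third, and the part of this make-up in the ratios was not tested. Neutrophil progenitor-like cells had 23 of 44 lower and 0 higher, where 9.17% of 9971 genes were lower and 1.4% higher. Their median was -0.59, against -0.11 over all genes, and -0.39 with 7 members lower after a shift of -0.22. Psmd7, Psmc2 and Psmb2 were among the 5 lowest members in each of the 3 populations. Psmd7 had ratios of -1.03, -0.88 and -0.98 over all kept cells, over HSPC-like cells and over the neutrophil progenitors, Psmc2 -1.01, -1.06 and -1.04, Psmb2 -0.91, -1.10 and -0.89, and Psmc4 -0.94, -0.82 and -1.03. Median mitochondrial share was also highest in the twice-challenged library; with cells kept at up to 5% mitochondrial UMIs, the median in neutrophil progenitor-like cells was -0.52.

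**Figure D4:**
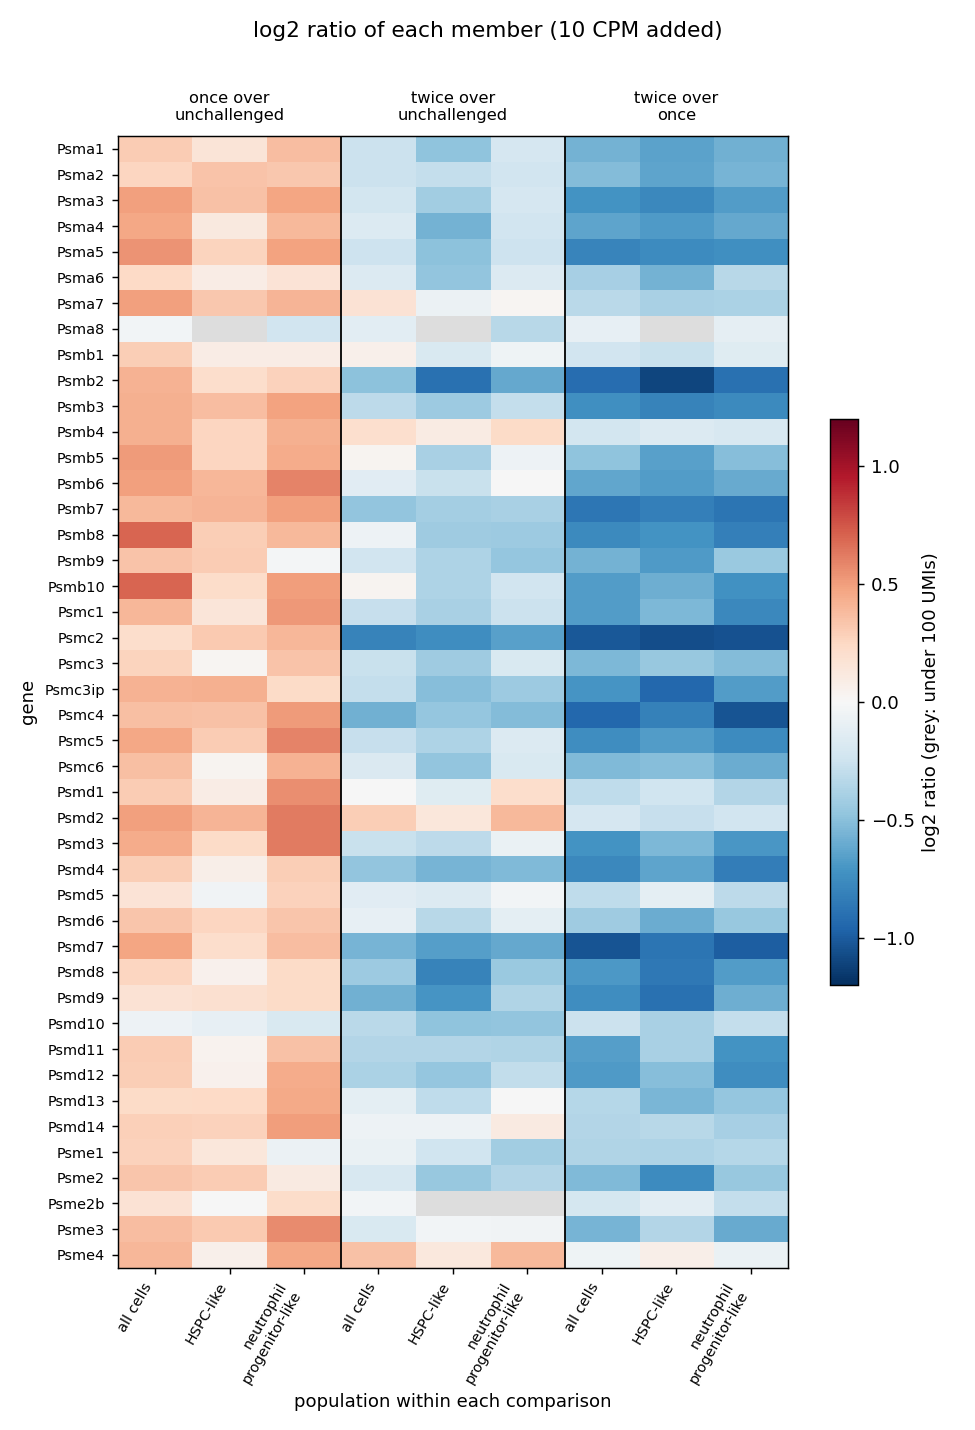
log2 ratio of CPM with 10 CPM added (colour, red higher and blue lower in the library named first) for 44 members (rows; Psmb11 had no UMI) in the 3 comparisons and 3 populations (columns), with grey where a pair of libraries held under 100 UMIs. The left block is mostly red, with Psmb10 and Psmb8 at 0.70 in all kept cells, and the right block is blue apart from Psme4 in HSPC-like cells, where Psmc2 was at -1.06.

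By role, the alpha ring genes, which form the outer rings and the gate of the core, all lay on the same side of 0 in 2 of the comparisons. In the once-challenged library over the steady-state library their 7 ratios over all kept cells ran from 0.23 to 0.54, and in the twice-challenged library over the once-challenged library from -0.79 to -0.32. Psma7 was the alpha gene least below 0 after 2 challenges over 1, at -0.32, and Psma5 the most, at -0.79. The 4 non-catalytic beta genes split. Psmb2 had 233 CPM in the steady-state library, 270.02 CPM in the once-challenged library and 120.4 CPM in the twice-challenged library in HSPC-like cells, and Psmb3 had 228 CPM in the steady-state library, 298 CPM in the once-challenged library and 166 CPM in the twice-challenged library. Psmb1 had 373 CPM in the steady-state library, 397 CPM in the once-challenged library and 328 CPM in the twice-challenged library, and Psmb4 had 166 CPM in the steady-state library, 200.5 CPM in the once-challenged library and 178 CPM in the twice-challenged library, so that the interval of Psmb4 in the twice-challenged library overlapped its steady-state interval while that of Psmb2 lay below its steady-state interval.

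The 6 base ATPases, which unfold substrates and thread them into the core, had a median ratio of -0.71 in the twice-challenged library over the once-challenged library over all kept cells, and 4 of them were lower, where 8.43% of all genes were lower. In HSPC-like cells Psmc2 had 53.6 (48.1 to 59.6) CPM in the steady-state library, 69.1 (64.9 to 73.6) CPM in the once-challenged library and 27.95 (24.1 to 32.2) CPM in the twice-challenged library. Psmc4 had 60.5 (54.6 to 66.9) CPM in the steady-state library, 79.7 (75.2 to 84.5) CPM in the once-challenged library and 40.99 (36.4 to 46.1) CPM in the twice-challenged library, and Psmc3 had 108 (100.2 to 117) CPM in the steady-state library, 110.4 (105 to 116) CPM in the once-challenged library and 78.1 (71.6 to 84.9) CPM in the twice-challenged library. Psmc2 in the twice-challenged library thus lay below both other libraries with no overlap of intervals. The 11 other 19S genes, which include the ubiquitin receptor Psmd4 and the deubiquitinase Psmd14, had a median of -0.66 in the same comparison, and 6 were lower. Psmd7, the partner of Psmd14 in the lid, had 129 CPM in the steady-state library, 184 CPM in the once-challenged library and 84.6 CPM in the twice-challenged library over all kept cells. Psmd2, the large scaffold of the base, was an exception, at 64.1 CPM in the steady-state library, 94.1 CPM in the once-challenged library and 80.6 CPM in the twice-challenged library, and its count is among those shared with other transcripts. Its ratio in the twice-challenged library over the steady-state library lay above 0 in 7 of 9 classes measured, and in 9 of 9 after scaling. Psmd5, Psmd9 and Psmd10, chaperones that assemble the base, had a median of -0.31 over the once-challenged library, with Psmd9 at 54.5 CPM in the steady-state library, 62.8 CPM in the once-challenged library and 33.4 CPM in the twice-challenged library. Psmd10 had 36.1 CPM in the steady-state library, 34.1 CPM in the once-challenged library and 26.9 CPM in the twice-challenged library and was the sole one of the 3 chaperones not highest after 1 challenge, with overlapping steady-state and once-challenged intervals.

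Among the activators, Psme1 and Psme2 followed the inducible catalytic genes across classes, whereas Psme3 and Psme4 did not. Over the 36 points given by 12 classes and 3 libraries, the log2 level of Psme1 had a Pearson correlation of 0.94 with the summed inducible level and Psme2 one of 0.89, against 0.13 for Psme3 and 0.05 for Psme4; the points share libraries and differ in depth, and the values are a description. Psme1 had 197 CPM in the steady-state library, 242 CPM in the once-challenged library and 186 CPM in the twice-challenged library over all kept cells, and Psme2 had 169 CPM in the steady-state library, 215 CPM in the once-challenged library and 146 CPM in the twice-challenged library. Dendritic cell-like cells had the highest Psme1, at 634 CPM in the steady-state library, 609 CPM in the once-challenged library and 434 CPM in the twice-challenged library, and erythroid-like cells had 141 CPM in the steady-state library, 155 CPM in the once-challenged library and 135 CPM in the twice-challenged library. HSPC-like cells had 295 CPM in the steady-state library, 324 CPM in the once-challenged library and 249 CPM in the twice-challenged library of Psme1, and neutrophil progenitor-like cells had 231 CPM in the steady-state library, 219.5 CPM in the once-challenged library and 171 CPM in the twice-challenged library, where the once-challenged level was the middle of the 3. Psme4, the PA200 cap of nuclear proteasomes, differed from most members in being higher after 2 challenges than at steady state, at 14.95 (14.2 to 15.7) CPM in the steady-state library, 22.99 (22.2 to 23.8) CPM in the once-challenged library and 21.8 (20.8 to 22.8) CPM in the twice-challenged library over all kept cells. Its ratio to the steady-state library lay above 0 in 6 of 7 classes measured, and in 7 of 7 after scaling. Psme2b, a near copy of Psme2, had 3.33 CPM in the steady-state library, 5.03 CPM in the once-challenged library and 3.004 CPM in the twice-challenged library.

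Across the named classes, the members as a whole did not differ in one direction in the once-challenged library, while Psmb8 and Psmb10 lay above 0 in each class measured before scaling. The members' median ratio to the steady-state library was above 0 in 7 of 11 classes with at least 20 members measured and below 0 in 4, from -0.14 in erythroid-like cells to 0.39 in neutrophil progenitor-like cells. Psmb8 lay above 0 in 11 of 11 classes measured (10 of 11 after scaling) and Psmb10 in 10 of 10 (10 of 10 after scaling), while Psmb9 did so in 9 of 11 (8 of 11 after scaling). Psmb5 lay above 0 in 8 of 11 and Psmb6 in 7 of 11. In B lineage-like cells, Psmb8 had 408 CPM in the steady-state library, 564 CPM in the once-challenged library and 292 CPM in the twice-challenged library, and Psmb5 had 252 CPM in the steady-state library, 234 CPM in the once-challenged library and 177 CPM in the twice-challenged library. Psmb8 was thus highest after 1 challenge in B lineage-like cells while Psmb5 was highest at steady state. The twice-challenged library had a members' median below 0 in 11 of 11 classes, both over the steady-state library, from -0.71 in T, NK or innate lymphoid-like cells to -0.23 in neutrophil progenitor-like cells, and over the once-challenged library, from -0.83 to -0.29. After scaling these ranges were -0.49 to -0.12 and -0.57 to -0.20. Psmb2 and Psmb7 lay below 0 in 11 of 11 classes in both comparisons, with and without scaling, whereas Psmb4 lay above 0 in 5 of 11 classes over the steady-state library and in 7 of 11 after scaling.

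The regulators of these genes did not show one pattern. Of 13 listed regulators of immunoproteasome transcription, 0 were past 1.5-fold in the once-challenged library over the steady-state library over all kept cells, where 1.99% of all genes were higher and 1.52% lower, and the median ratio was 0.04, against 0.07 over all genes. In HSPC-like cells of the twice-challenged library over the steady-state library, 4 of 12 measured were lower, where 9.77% of all genes were lower and 1.74% higher, and the median was -0.35, against -0.15 over all genes. Irf9, a DNA-binding factor of the interferon response, had 49.03 CPM in the steady-state library, 39.7 CPM in the once-challenged library and 21.6 CPM in the twice-challenged library in HSPC-like cells. Irf1, which drives the inducible subunits under interferon gamma, had 32.2 CPM in the steady-state library, 29.5 CPM in the once-challenged library and 25.2 CPM in the twice-challenged library in those cells, and Nlrc5, the MHC class I transactivator, had 11.03 CPM in the steady-state library, 9.19 CPM in the once-challenged library and 13.03 CPM in the twice-challenged library. Nfe2l1, which restores proteasome genes when the proteasome is impaired, had 25.5 CPM in the steady-state library, 21.9 CPM in the once-challenged library and 23.03 CPM in the twice-challenged library, with overlapping intervals. Of 10 listed regulators of proteasome gene transcription, 0 of 9 measured were past 1.5-fold in HSPC-like cells in any of the 3 comparisons. Over all genes in these cells, 0.652% were higher and 1.27% lower in the once-challenged library over the steady-state library. In the twice-challenged library over the once-challenged library, 1.76% were higher and 10.4% lower. With so few regulators, a count of 0 is near these shares.

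Peptide loading genes, which act downstream of the immunoproteasome, divided in HSPC-like cells after 2 challenges. Of 12 listed, 4 were lower and 0 higher over the steady-state library, where 9.77% of all genes were lower and 1.74% higher, and the median ratio was -0.26, against -0.15 over all genes. H2-T23, a nonclassical class I chain, had 199.7 CPM in the steady-state library, 161 CPM in the once-challenged library and 41.6 CPM in the twice-challenged library, and H2-D1, a classical one, had 911 CPM in the steady-state library, 923 CPM in the once-challenged library and 460.4 CPM in the twice-challenged library. Tap1, the peptide transporter subunit encoded next to Psmb9, had 82.1 CPM in the steady-state library, 83.3 CPM in the once-challenged library and 82.3 CPM in the twice-challenged library, with overlapping intervals. Among interferon response genes, 20 of 26 measured were lower and 0 higher in HSPC-like cells in the same comparison, with a median of -0.91, and Isg15, the ubiquitin-like modifier, had 89.5 CPM in the steady-state library, 70.5 CPM in the once-challenged library and 10.3 CPM in the twice-challenged library. In the same cells and comparison, the inducible catalytic genes had a median of -0.37 and the constitutive ones of -0.39. In the once-challenged library over the steady-state library, 2 of 29 interferon response genes were higher and 1 lower in HSPC-like cells, where 0.652% of all genes were higher and 1.27% lower, and the median was -0.03, against -0.01 over all genes.

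Genes that supply the proteasome gave mixed values, read here against the 9.77% of all genes that were lower and the 1.74% that were higher in HSPC-like cells of the twice-challenged library over the steady-state library. The assembly and accessory factors had 2 of 12 lower and 0 higher, a count near that background, namely Txnl1, a thioredoxin-like protein bound to the 19S cap, at 137 CPM in the steady-state library, 146 CPM in the once-challenged library and 82.99 CPM in the twice-challenged library, and Adrm1, a ubiquitin receptor of that cap, at 59.1 CPM in the steady-state library, 65.3 CPM in the once-challenged library and 35.2 CPM in the twice-challenged library. Pomp, the maturation factor of the core, had 268 CPM in the steady-state library, 303 CPM in the once-challenged library and 216 CPM in the twice-challenged library. Of the deubiquitinases, shuttles and unfoldase factors, 2 of 13 were lower and 0 higher in that comparison, also near the background, among them Nsfl1c, a cofactor of the unfoldase Vcp, at 49.03 CPM in the steady-state library, 54.9 CPM in the once-challenged library and 22.7 CPM in the twice-challenged library. Vcp itself had 169 CPM in the steady-state library, 271 CPM in the once-challenged library and 229 CPM in the twice-challenged library in neutrophil progenitor-like cells, where it was past 1.5-fold higher in the once-challenged library over the steady-state library, as were 2.35% of all genes. Of 10 genes of ubiquitin and its activating enzymes, 4 were lower in HSPC-like cells after 2 challenges over the steady-state library. Among those lower were Ube2l6 (-1.46), a conjugating enzyme that also serves Isg15, the polyubiquitin gene Ubb (-1.15), and Ube2n (-1.05). Ubb had 1617 CPM in the steady-state library, 1315 CPM in the once-challenged library and 724 CPM in the twice-challenged library.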

How the data were processed

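The 3 droplet libraries of Kit-enriched C57BL/6 mouse bone marrow comprised 1 per condition. The deposited values were raw UMI counts per gene and cell barcode; per the labels' protocols the kit was 10x Genomics Single Cell 3' version 2, and per the submitters' processing notes Cell Ranger 3.0.0 and mm10 were used. The roles and order of these steps are not given in the sources used here. The series' design text speaks of 2 samples, so the sample labels were followed.

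A barcode was kept from 500 UMIs and 300 detected genes upwards if no more than 10% of its UMIs were mitochondrial, and Scrublet calls (427, 294 and 256 barcodes with 0, 1 and 2 challenges) were removed. Cells were clustered with scanpy 1.11.5 and leidenalg 0.10.2 (2000 variable genes, 30 components, 15 neighbours, resolution 1) without the members, the listed genes, ribosomal, mitochondrial, cell cycle and inflammatory genes. Clusters were named from 14 fixed marker lists, and the further requirement of a marker of that class alone among the 10 leading genes was set after seeing the data; it left 1 cluster unnamed. Counts were summed per library and class and divided by total UMIs (CPM), with exact Poisson intervals, and shares had Clopper-Pearson intervals, from scipy 1.17.1. No test was run, since each group was 1 library. UMI totals per library ranged from 95522747 to 135079828. Values were printed for the 6 catalytic genes, Psme1, Psme2, Nfe2l1, Irf1, Nlrc5 and Tap1, for up to 5 members with the largest log2 ratio in each comparison and population, for the highest and lowest members, and for up to 4 genes of each of 7 lists; some genes that this rule names are not reported here. Levels by role and by class were added to describe the remaining members. The members and lists were chosen with earlier results of these data known. On simulated counts for HSPC-like cells after 1 challenge over steady state (7358 genes), 83 of 100 genes changed 2-fold and 100 of 100 changed 4-fold passed 1.5-fold. Alternatives were other cell filters, doublet calls kept, Leiden resolution 2, restriction to clusters holding 100 cells or more in each library, equal weight per cell, median-of-ratios scaling, 1 CPM added and no filter on low genes. Sequences came from RefSeq (GRCm38.p6) and gene positions from GENCODE M21.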

Additional observations from a re-analysis of the deposited data

Results flagged for a closer look

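The inducible share differed in direction between classes under the same comparison, and these differences were not tested. In the once-challenged library minus the steady-state library, the share differed by 9.43 percentage points in mature neutrophil-like cells and by -3.24 percentage points in neutrophil progenitor-like cells. One of the clusters that form the mature neutrophil-like class held 280 cells in the once-challenged library and 3 in the steady-state library, so its make-up moved with the library. In the twice-challenged library minus the steady-state library, the share differed by 7.59 percentage points in T, NK or innate lymphoid-like cells, which numbered 366 and 65 cells in these libraries, and by -5.44 percentage points in immature neutrophil-like cells. In the immature class, one cluster held 643 cells in the twice-challenged library and 38 in the steady-state library.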

How the results depend on the processing

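Across the alternatives, 0 medians changed sign, while the order of some shares turned. Single-gene ratios were followed for the 6 catalytic genes, Psme1 and Psme2 only, and not for the remaining members. Among these ratios, 0 of those past 1.5-fold changed sign, but some smaller ones did. One was Psmb6 in neutrophil progenitor-like cells, for the twice-challenged over the steady-state library under median-of-ratios scaling. Within the counting error of the value reported stayed 41 of 57 shares. Of the medians, 67 of 84 stayed within the typical counting error of a single member's log2 ratio. That yardstick, the median half-width of the members' fold intervals, is not the counting error of the median itself. Of the counts of members, 147 of 168 stayed within 1.5-fold of the count reported. Of 672 single-gene ratios of the 6 catalytic genes, Psme1 and Psme2, 629 kept both their sign and their side of the 1.5-fold line. The cause of the other shifts was not tested. Weighing each cell the same gave inducible shares over all kept cells of 45.7%, 49.72% and 46.56% with 0, 1 and 2 challenges, and 54.31% in HSPC-like cells after 1 challenge. Restriction to clusters holding 100 cells or more in each library gave 43.88% over all cells at steady state. The class make-up of the steady-state library gave 44.09% and 40.73% after 1 and 2 challenges, and a limit of 5% mitochondrial UMIs gave 42.89% after 2; these 2 alternatives were chosen after seeing the data. The share over all kept cells in the twice-challenged library, 43.4% against 42.3% in the steady-state library as reported, was thus the lower one with the class make-up imposed (40.73% against 42.3%) and with the 100-cell clusters (43.12% against 43.88%). With doublet calls kept, shares were 54.47% and 55.29% in HSPC-like cells after 1 and 2 challenges, and 41.43%, 36.42% and 36.88% in neutrophil progenitor-like cells with 0, 1 and 2, so that the twice-challenged library lay above the once-challenged library there, against 37.6% and 39.4% as reported. In HSPC-like cells the order of the libraries also turned under some alternatives, among shares of which those reported had overlapping intervals. Resolution 2 gave 41.2%, 35.48% and 33.51% in neutrophil progenitor-like cells. For the once-challenged over the steady-state library, members higher over all cells numbered 0 with the 100-cell clusters, 0 with the class make-up and 0 with median-of-ratios scaling, and the median ratio was 0.3054, 0.1649 and 0.1595 under these and 0.391 with 1 CPM added. In neutrophil progenitor-like cells, members higher numbered 2 with doublets kept, 0 with scaling and 8 with 1 CPM added (1 lower), and the scaled median was 0.2793. For the twice-challenged over the steady-state library, members lower over all cells numbered 2 with equal cell weights, 2 with the 100-cell clusters, 4 with the class make-up and 4 with 1 CPM added, and the median was -0.2747 with equal weights, -0.3615 with the make-up and -0.1401 with scaling. In HSPC-like cells 8 were lower with doublets kept, 2 with scaling and 9 with 1 CPM added, and the scaled median was -0.209. In neutrophil progenitor-like cells 6 were lower at resolution 2, 0 with at most 5% mitochondrial UMIs, 0 with scaling and 6 with 1 CPM added, and the scaled median was -0.1235. For the twice-challenged over the once-challenged library, scaling left 5 members lower over all cells, 10 for HSPC-like and 7 for neutrophil progenitor-like cells, with medians of -0.3461, -0.4313 and -0.386. The median over all cells was -0.524 with the make-up and -0.6181 with 1 CPM added; in neutrophil progenitor-like cells it was -0.6694 at resolution 2 and -0.5185 with at most 5% mitochondrial UMIs. The 100-cell clusters include all HSPC-like and neutrophil progenitor-like cells, so they change nothing there. With 1 library per group no replicate could be left out. No paired analysis was possible because each group has 1 library and no test was run. Genes under 100 UMIs in a pair, among them Psma8 in single classes and Psmb11, are limited by depth.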
